A study of Mus musculus with 2 samples.

Results

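The 10 genes described here encode the muscle acetylcholine receptor (AChR) and the proteins that gather it at the neuromuscular junction. They are the receptor subunit genes Chrna1, Chrnb1, Chrnd, Chrng and Chrne, the clustering genes Musk, Lrp4, Dok7 and Rapsn, and Colq, which anchors acetylcholinesterase. They were chosen by symbol, with earlier results of these data known, and all 10 were found among 21829 genes. C2C12 is an established mouse myoblast line, a line of muscle precursor cells that can be made to fuse into myotubes. RNA was sequenced from unedited cells (genotype WT) and from a line edited with CRISPR–Cas9 in exon 2 of Gne, an enzyme gene of sialic acid synthesis (genotype GNE KO, here KO). Both were grown in the same medium with fetal bovine serum, not in a medium named as one for differentiation. The study isolated single clones to make the KO line, so a difference between the lines may belong to the clone. There was 1 library per line, so no difference given here has a replicate check, no test was run, and no value has an error.

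The values were read as FPKM, which scales the fragments of a gene by its transcript length and by sequencing depth. Reads per library are not given, so counting error is unknown. Gne itself stood at 6.67 FPKM in WT and 7.34 FPKM in KO, so its RNA does not check the labels, and KO below always means the library with that label. Of 12 housekeeping genes, none was at 0, and their log2 fold changes lay between -0.59 and 0.20. Among 7 myoblast markers Pax7 was at 0 in both libraries and Myod1 at 0 in the KO library. The summed level of this list was 246 FPKM in WT and 66.2 FPKM in KO. Its genes did not all go the same way, as Myf5 was 9.14 FPKM in WT and 20.3 FPKM in KO. Ncam1 was 14.7 and 13.0 FPKM. Of 9 myotube markers, 8 were below 1 FPKM in both libraries.

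In muscle fibers the AChR is a pentamer with a pair of alpha subunits (Chrna1) and single beta (Chrnb1) and delta (Chrnd) subunits. The fetal receptor also holds a gamma subunit (Chrng), which the epsilon subunit (Chrne) replaces in adult muscle. Agrin released by the nerve binds LRP4, which activates the kinase MuSK. DOK7 is the cytoplasmic adaptor that MuSK needs for full activity, and rapsyn (Rapsn) ties receptors into clusters. In cultured muscle cells the subunit genes are known to rise on differentiation under myogenic factors of the MyoD family, which bind E-boxes (CANNTG), and Ets-type factors act through the N-box (CCGGAA) in the epsilon promoter.

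All 10 genes had a lower value in KO than in WT. Among the 14473 genes above 0 in either library, the same was true of 49.2%. In KO, 7 of the 10 were still above 0 and Chrng, Chrne and Colq were listed at 0. Without a pseudocount, every one of these 10 values was below 50% of WT, and this was so for 13.8% of the 13709 genes above 0 in WT. The 10 include Chrne and Colq, whose WT values of 0.027 and 0.012 FPKM are among the smallest of that library. For these genes a value of 0 in KO carries little information. The 7 genes above 0 in both libraries kept between 2.04% and 49.9% of their WT level. With bulk RNA, fewer cells expressing a gene and less of its RNA per cell cannot be told apart.

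**Figure D1:**
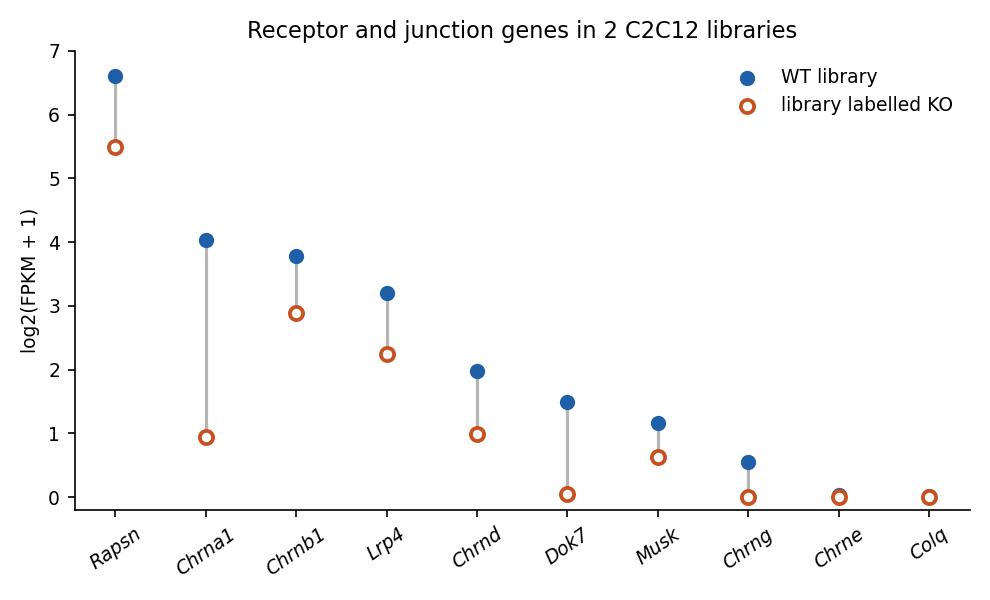
Level of each of the 10 genes on the log2(FPKM + 1) scale, 1 filled point for the WT library and 1 open point for the library labelled KO, in the order of the WT level. The KO point lies below the WT point for each gene, with the widest gap at Chrna1, and Chrne and Colq lie near 0 in both.

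The sequences before the start sites of 4 subunit genes are shown because the factors named above are known to act through such sites. Each line gives the 250 bases before the annotated start, 5′ to 3′ on the gene's strand, from RefSeq on GRCm38.p6, with CANNTG and CCGGAA in capitals.
Chrna1: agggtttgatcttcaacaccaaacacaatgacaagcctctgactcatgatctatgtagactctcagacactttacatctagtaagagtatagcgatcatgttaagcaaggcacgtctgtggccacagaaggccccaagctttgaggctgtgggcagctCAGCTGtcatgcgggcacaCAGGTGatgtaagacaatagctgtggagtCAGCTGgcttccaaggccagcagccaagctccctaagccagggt
Chrng: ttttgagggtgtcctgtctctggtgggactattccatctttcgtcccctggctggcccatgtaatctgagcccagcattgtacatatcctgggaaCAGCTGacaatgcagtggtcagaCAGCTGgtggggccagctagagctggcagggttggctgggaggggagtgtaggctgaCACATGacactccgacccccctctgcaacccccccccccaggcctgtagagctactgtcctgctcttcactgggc
Chrnb1: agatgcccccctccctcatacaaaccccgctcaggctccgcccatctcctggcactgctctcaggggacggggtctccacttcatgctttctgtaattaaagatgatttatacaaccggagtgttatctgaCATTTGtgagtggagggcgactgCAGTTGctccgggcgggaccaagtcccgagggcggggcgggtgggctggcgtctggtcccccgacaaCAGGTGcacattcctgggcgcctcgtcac
Chrne: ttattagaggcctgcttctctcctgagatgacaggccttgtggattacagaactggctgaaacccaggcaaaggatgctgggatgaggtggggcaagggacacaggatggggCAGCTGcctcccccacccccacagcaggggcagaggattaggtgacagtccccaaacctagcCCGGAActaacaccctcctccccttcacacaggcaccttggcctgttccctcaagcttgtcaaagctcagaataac
These stretches lie on chromosome 2 from 73580339 to 73580588 (minus strand), chromosome 1 from 87205561 to 87205810 (plus strand), chromosome 11 from 69795938 to 69796187 (minus strand) and chromosome 11 from 70619195 to 70619444 (minus strand), in that order.

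Both strands were searched in windows of 300 bases, which add the 50 bases after the start. Windows were given for 6 of the 10 genes, with 2 windows for Dok7, and not for Chrnd, Rapsn, Lrp4 and Colq. Chrna1, Chrng, Chrnb1 and Musk each held 3 CANNTG matches, and 17.6% of all 32851 windows held at least 3. The palindromic form CAGCTG, singled out after the windows were seen, occurred 2 times in Chrna1 and 2 times in Chrng, against at least 2 in 1.9% of all windows. Those of Chrna1 begin 92 and 44 bases before the start, and those of Chrng 155 and 132 bases before it. None of the 3 matches of Chrnb1 was CAGCTG, and 1 was CAGGTG, a form that Chrna1 also held 1 time. Chrne held 1 CAGCTG and the single CCGGAA of these windows, 76 bases before its start, a word found in 14.9% of all windows. Musk held 1 CAGCTG, and the windows of Dok7 held 1 CANNTG match in all, which was CAGATG. A match is a string of letters and was not shown to be bound in these cells. Whether the matches relate to the RNA left in KO was not tested.

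Among the receptor subunits, the alpha subunit gene showed the widest gap. Chrna1, which encodes the subunit with the main acetylcholine-binding surface, was 15.3 FPKM in WT and 0.917 FPKM in KO. It was the highest of the 5 subunit genes in WT and below Chrnb1 and Chrnd in KO. The KO level was 5.98% of WT, and the log2 fold change, log2((KO + 1)/(WT + 1)), was -3.09. Of the 10542 genes that averaged 1 FPKM or more over the libraries, 20 had a lower log2 fold change. The pseudocount of 1 compresses this difference, which was -3.92 with a pseudocount of 0.1. Adding 5 in its place gave -1.78.

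Chrnb1, the beta subunit gene, was 12.8 FPKM in WT and 6.37 FPKM in KO. Of the 5 subunit genes it kept the largest share of its level, 49.9%, and its log2 fold change of -0.90 did not reach 2-fold. Chrnd, the delta subunit gene, was 2.96 FPKM in WT and 0.985 FPKM in KO. Its level in KO was 33.3% of WT, between those of Chrna1 and Chrnb1. The log2 fold change of Chrnd was -0.997, just short of the threshold of -1.

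The subunits that distinguish the fetal from the adult receptor were low in both lines. Chrng was 0.462 FPKM in WT and was listed at 0 in KO. Of 415 genes with a WT value from 0.3 to 0.6 FPKM, 5.3% were listed at 0 in KO. Chrne was 0.027 FPKM in WT and was listed at 0 in KO. For genes of like transcript length, within 10% of that of Chrne, the lowest 5% of WT values above 0 ended at 0.029 FPKM, so the WT value of Chrne lay in the lowest range that this library holds. The fetal gene thus had the higher level of the pair in WT, and no fold is given for either because the KO value was 0.

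The make-up of the subunit RNA therefore differed between the lines. The 5 subunit genes summed to 31.6 FPKM in WT and 8.27 FPKM in KO, a ratio of 3.81 that depends on how the libraries are scaled. The shares of that sum are taken within each library, so no scaling of a library changes them. Chrna1 made up 48.6% of that sum in WT and 11.1% in KO. Chrnb1 made up 40.5% in WT and 77.0% in KO, and Chrnd 9.38% and 11.9%. The level of Chrna1 was 1.20 times that of Chrnb1 in WT and 0.144 times in KO. The assembled receptor holds more alpha than beta subunits, and the order of the RNA levels per length was alpha over beta in WT and beta over alpha in KO. Protein was not measured in these files.

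**Figure D2:**
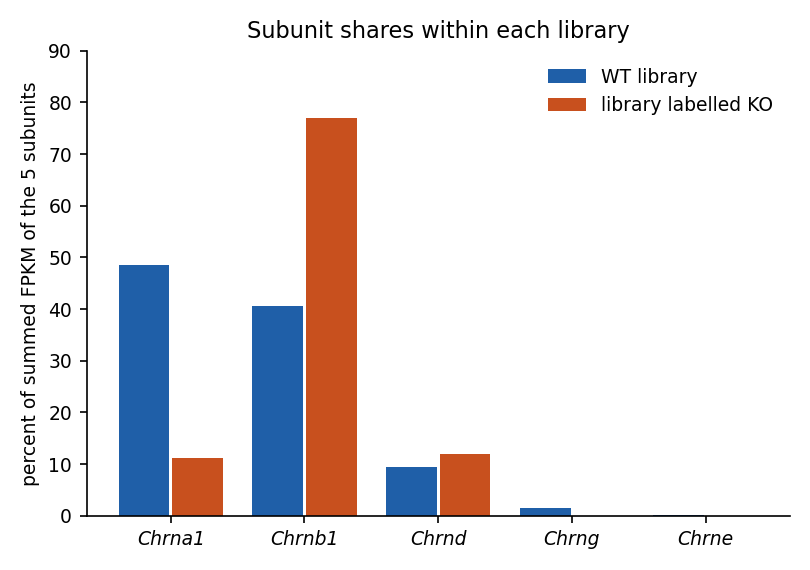
Share of each AChR subunit gene in the summed FPKM of the 5 genes, in percent, with 1 bar per library and no error since each line has 1 library. Chrna1 takes 48.6% in WT and 11.1% in KO, and Chrnb1 40.5% and 77.0%.

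The genes of the clustering pathway also had lower values in KO, but most kept close to the same share of their WT level. Rapsn was by far the highest of the 10 genes, at 96.5 FPKM in WT and 44.1 FPKM in KO. It ranked 911 among all genes by level in WT and 2111 in KO. The KO level was 45.7% of WT and the log2 fold change was -1.11. The Rapsn call rests on a value close to the threshold of -1.

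Lrp4, the agrin receptor, was 8.24 FPKM in WT and 3.74 FPKM in KO, which is 45.4% of WT. Its log2 fold change of -0.96 missed the threshold. Musk, the receptor kinase, was 1.23 FPKM in WT and 0.555 FPKM in KO. The mean of Musk was 0.892 FPKM, below the filter, and its KO level was 45.1% of WT. Rapsn, Lrp4, Musk and the receptor gene Chrnb1 thus lay between 45.1% and 49.9%, a group picked by these values. Of the other genes above 0 in KO, Chrnd kept 33.3%, Chrna1 5.98% and Dok7 2.04%. The level of Rapsn was 11.7 times that of Lrp4 in WT and 11.8 times in KO, and Lrp4 was 6.70 times Musk in WT and 6.74 times in KO.

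Dok7 departed from the other clustering genes. Its value was 1.82 FPKM in WT and 0.037 FPKM in KO, so that 2.04% of the WT level was left. Dok7 was higher than Musk in WT, where Musk was 0.677 times Dok7, and lower in KO, where Musk was 15.0 times Dok7. The mean of Dok7 was 0.926 FPKM, just under the filter, and its log2 fold change was -1.44. Among genes of like length, the lowest 5% of KO values above 0 ended at 0.0266 FPKM, so the KO value of Dok7 is close to the smallest values of that library and the share left is imprecise.

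Colq, the collagen tail that holds acetylcholinesterase in the synaptic basal lamina, was 0.012 FPKM in WT and was listed at 0 in KO. The lowest 5% of WT values above 0 ended at 0.018 FPKM for genes of its length. At these values no difference between the lines was detectable for Colq.

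The same genes were placed among all genes by the fold rule of the study, a log2 fold change beyond 1, without its P value. Of the 10 genes, 5 had a mean of at least 1 FPKM, namely Chrna1, Chrnb1, Chrnd, Lrp4 and Rapsn. Of these 5, Chrna1 and Rapsn were more than 2-fold lower in KO and 0 were more than 2-fold higher. Over all 10542 genes past the filter, 3.43% were lower and 2.84% were higher by this rule. The median log2 fold change of the 5 genes was -0.997 and that of all genes was 0.0061. The count of 2 depends on the pseudocount, since Chrnd, Lrp4 and Chrnb1 all lay between -0.90 and -1. As a plain ratio, an alternative added after the values were seen, all 5 lay below 50% of WT, as did 4.61% of all genes past the filter.

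**Figure D3:**
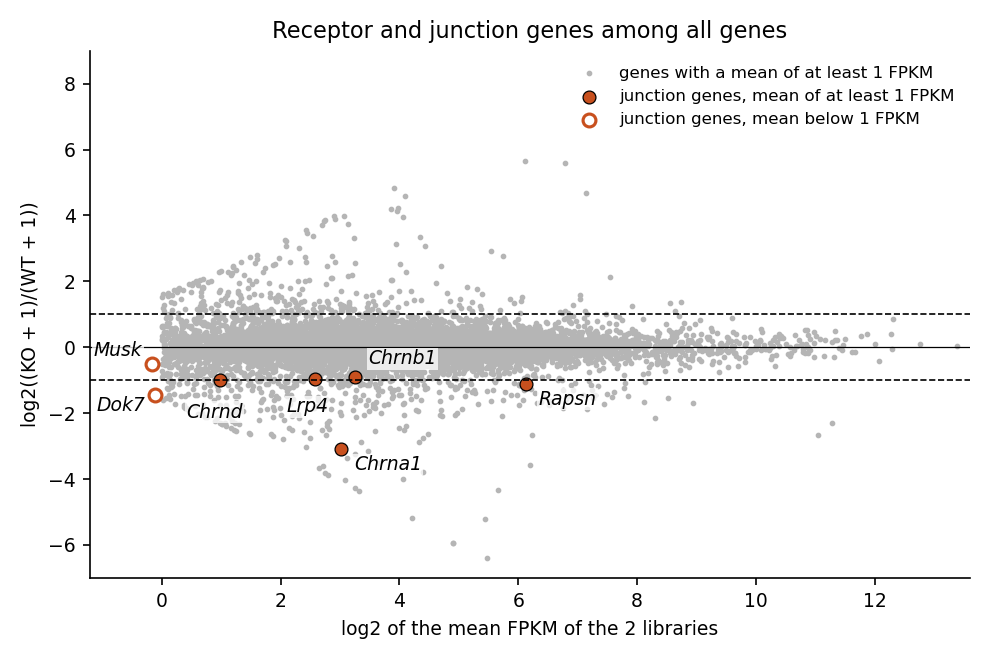
Log2 fold change of the library labelled KO against WT on the log2(FPKM + 1) scale over the log2 of the mean FPKM, for 10542 genes averaging 1 FPKM or more (grey) and for 7 receptor and junction genes (orange, open where the mean is below 1 FPKM). Dashed lines mark 2-fold, Chrna1 lies at -3.09, and Chrnb1, Chrnd, Lrp4 and Rapsn lie close to the lower line.

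Positions were compared to see whether the genes around each of the 10 differed between the libraries as well. On GRCm39 (GENCODE vM39), Chrnd spans 87118306 to 87127795 on chromosome 1, and Chrng, from 87132379 to 87140416, begins 4.58 kb after it. On chromosome 2, Chrna1 spans 73393557 to 73410835, Rapsn 90865892 to 90876082 and Lrp4 91287797 to 91344248. Musk is on chromosome 4 from 58285931 to 58377847, Dok7 on chromosome 5 from 35213886 to 35246018 and Colq on chromosome 14 from 31243665 to 31313300. Chrnb1 (69674860 to 69686773) and Chrne (70505707 to 70510125) share chromosome 11. These 10 genes thus come from 6 chromosomes.

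Within 5 Mb of each of the 10 genes, the median log2 fold change of the genes past the filter lay between -0.15 and 0.16. For Chrna1 the median of 42 such genes was -0.079, and 0 of them were more than 2-fold lower. After subtraction of that median, Chrna1 was at -3.01. The nearest gene past the filter after the Chrnd and Chrng pair, Eif4e2, was 76.7 FPKM in WT and 70.2 FPKM in KO. The nearest genes past the filter on both sides of Chrnb1 differed by more than 2-fold. Fgf11 was 3.06 FPKM in WT and 0.461 FPKM in KO, a log2 fold change of -1.47 that was lower than that of Chrnb1 itself. Zbtb4, on the other side, was 3.19 and 7.75 FPKM. Around Chrnb1, 4 of 98 genes were more than 2-fold lower in KO, around Dok7 4 of 89, and around Chrnd 3 of 42. On either side of Rapsn, Celf1 was 40.5 and 38.9 FPKM, and Psmc3 was 227 and 164 FPKM, in WT and KO. Subtraction put Chrnd past 2-fold, at -1.16, and Rapsn short of it, at -0.96. Lrp4 was then at -0.81 and Chrnb1 at -0.86. In the annotation lncRNA genes on the other strand overlap Chrna1, Musk and Rapsn, and the value of Colq shares its place with genes of the same strand. The counting setting for strand is not given in the sources used here.

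**Figure D4:**
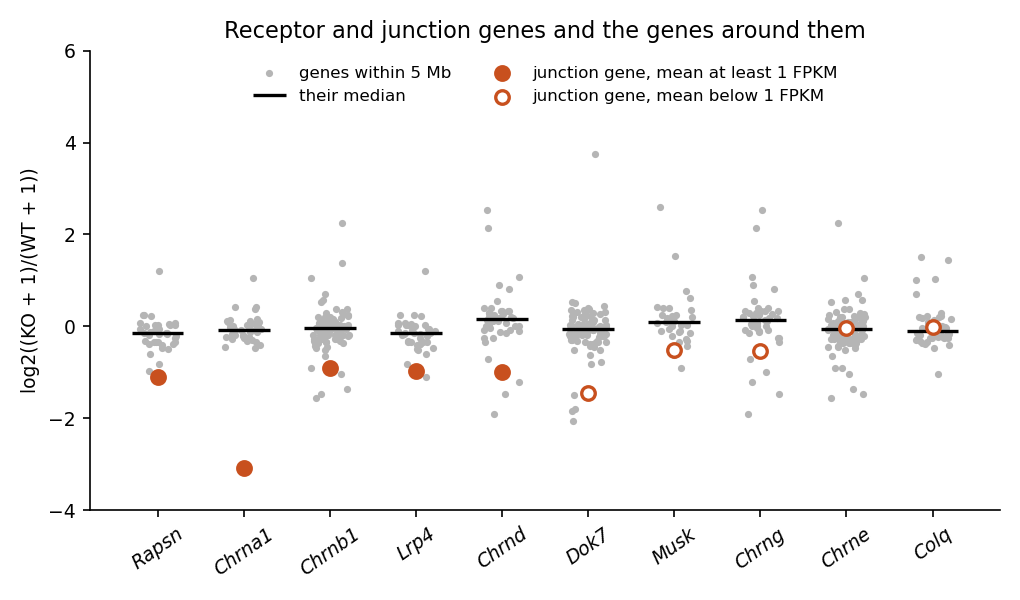
Log2 fold change on the log2(FPKM + 1) scale of each of the 10 genes (orange, open where the mean is below 1 FPKM) and of the genes past the filter within 5 Mb (grey), with their median as a black line. The medians lie between -0.15 and 0.16, and Chrna1, at -3.09, lies below every gene around it.

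Other genes of the pathway were described as lists. Of 23 genes for agrin and its signalling partners, such as Crk, Abl1, Rac1 and Cdc42, all 23 were past the filter, 1 was more than 2-fold lower and 0 were higher. Their median log2 fold change was -0.040. The lower gene was Prkaca, a catalytic subunit of protein kinase A, at 201 FPKM in WT and 73.1 FPKM in KO, and agrin itself was 5.80 and 6.42 FPKM. Prkaca lies on chromosome 8, where 55 of the 70 genes past the filter within 5 Mb of it were more than 2-fold lower as well. Their median log2 fold change was -1.42, beside -1.44 for Prkaca. Most of these partners act in many cell types besides muscle.

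Of 24 genes of the postsynaptic scaffold and the synaptic basal lamina, 16 were past the filter, of which 2 were more than 2-fold lower and 3 more than 2-fold higher. Dtna, a dystrobrevin that is part of the dystrophin complex, was 1.15 FPKM in WT and 6.89 FPKM in KO. Nid2, a nidogen of basement membranes, was 5.23 and 29.3 FPKM. Col4a5, a collagen IV chain, was 0.018 FPKM in WT and 6.08 FPKM in KO, and the ephrin receptor Epha4 was 2.68 FPKM in WT and listed at 0 in KO. Lama5, a laminin chain of synaptic and other basement membranes, was 23.7 and 10.7 FPKM. Utrn, the dystrophin relative found at junctions, was 10.8 and 12.2 FPKM. Ache, the enzyme that Colq anchors, was 0.021 FPKM in WT and listed at 0 in KO.

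Neuronal AChR subunits were low in both lines. All 11 of them were below 1 FPKM in both libraries, and 7 were at 0 in both. Chrnb2, at 0.304 FPKM in WT and 0.199 FPKM in KO, was the highest of them in both.

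The factors that act on AChR genes were listed as well, 27 in all with 19 past the filter. Of these 19, Myod1 and Id3 were more than 2-fold lower and Myf5 was more than 2-fold higher. Myod1, which activates AChR promoters through E-boxes, was 60.0 FPKM in WT and listed at 0 in KO. Myf5, a factor of the same family, was 9.14 FPKM in WT and 20.3 FPKM in KO. Myog, which drives receptor genes on differentiation, was 0.068 FPKM in WT and 0.027 FPKM in KO. Id3, an inhibitor of E-box binding, was 226 and 98.6 FPKM. The part of Myod1 in the lower receptor values was not tested.

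On the ErbB and Ets side, which acts through the N-box, 9 of 11 genes were past the filter. Of them 1 was more than 2-fold higher, the Ets factor Etv1 at 0.417 FPKM in WT and 4.52 FPKM in KO, and 0 were lower. Gabpa, the Ets subunit known to bind the N-box, was 26.2 FPKM in WT and 20.7 FPKM in KO.

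Sarcomere genes were compared because they also rise on differentiation. Of 27, 8 were past the filter, with a median log2 fold change of 0.39. Of these, 1 was more than 2-fold lower, Tnnc1 at 6.66 FPKM in WT and 2.74 FPKM in KO. A higher value in KO was found for 6 of the 8, and for 50.7% of all genes past the filter. Most of the list was barely expressed, with 19 of the 27 below 1 FPKM in both libraries. The highest were Tpm1, at 284 FPKM in WT and 546 FPKM in KO, and Tpm2, at 84.4 and 124 FPKM. Over all 27 genes, with those below the filter, 13 were lower and 9 higher in KO, and the median was 0. The receptor genes past the filter all had a lower value, and the difference between these lists was not tested. Among genes past the filter, low medians were not particular to the receptor and clustering genes. The median was -2.05 over 6 myoblast markers, -4.83 over 2 neuron markers and -0.37 over 3 nerve terminal genes, and 1.38 over 3 fibroblast markers. Both neuron markers, Stmn2 and Tubb3, were below 1 FPKM in KO and passed the filter through their WT values. Without the filter the medians were -0.72 over 7 myoblast markers and -0.031 over 7 neuron markers. They were 0 over 10 nerve terminal genes, 0.17 over 7 fibroblast markers and -0.93 over the 10 receptor and junction genes.

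**Figure D5:**
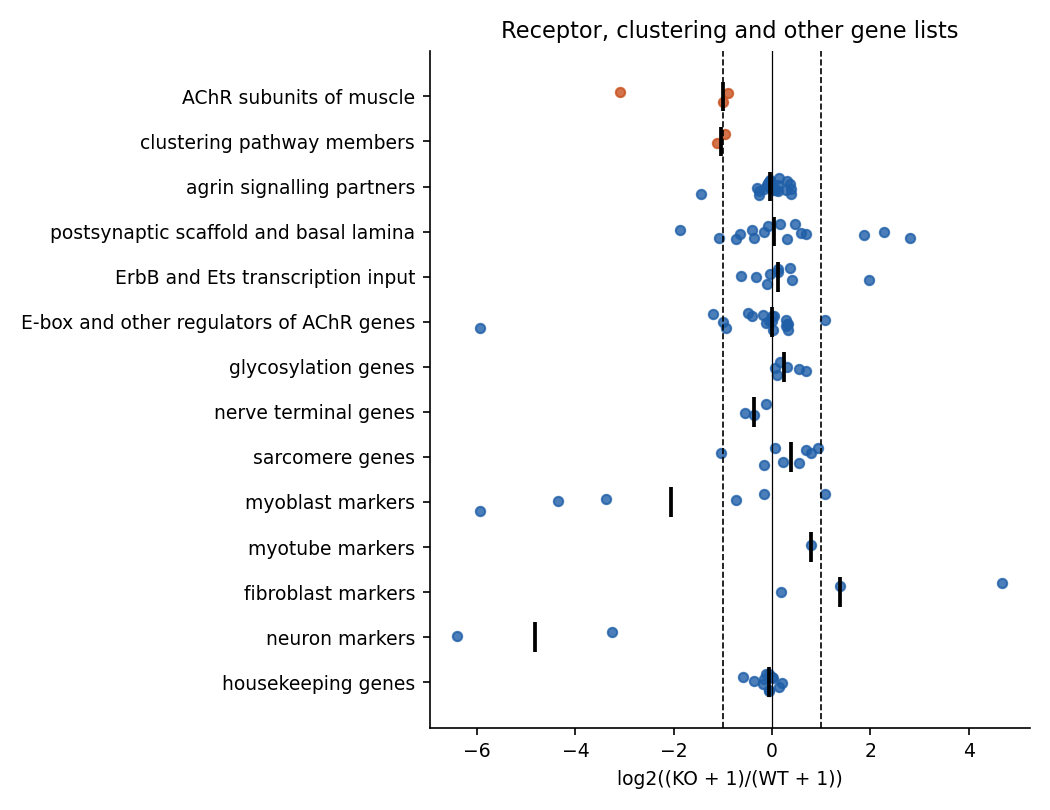
Log2 fold change on the log2(FPKM + 1) scale for each gene past the filter in the receptor and clustering lists (orange) and in other lists (blue), with the list median as a black line and 2-fold as dashed lines. The medians of the receptor and clustering genes are -0.997 and -1.04, over 3 and 2 genes, and the lowest medians are those of the myoblast and neuron markers, at -2.05 and -4.83.

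Marker lists for cell types also differed between the libraries. Of 7 myoblast markers, 6 were past the filter, with 3 more than 2-fold lower and 1 higher. Des, the muscle intermediate filament gene, was 97.6 FPKM in WT and 3.84 FPKM in KO, and Cdh15 was 16.6 and 0.701 FPKM. The higher gene was Myf5, and Ncam1 (14.7 and 13.0 FPKM) and Itga7 (47.4 and 28.4 FPKM) did not reach 2-fold. The 7 fibroblast markers summed to 258 FPKM in WT and 908 FPKM in KO, mostly from Col1a1 and Col1a2, while Lum, Thy1 and Tcf21 were at 0 in both. The 7 neuron markers summed to 107 FPKM in WT and 1.22 FPKM in KO, from Stmn2 and Tubb3, and Elavl3 and Elavl4 were at 0 in both. None of the 6 Schwann cell markers reached 1 FPKM in either library, and Sox10 and Foxd3 were at 0. The part of these markers in the result was not tested.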

How the data were processed

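RNA of 2 C2C12 libraries, 1 WT and 1 KO, was analysed. The study's methods name TrimGalore, STAR on GRCm39 and RSEM, whereas the submitters' processing notes list GRCm38. The authors deposited 1 value per gene symbol, taken here as FPKM from totals that differ between the libraries. A TPM table restricted to these genes would differ by 1 factor per library. Where a symbol occurred again (24 of 21853 rows), its higher row was used. Depth is unknown, so no interval is given.

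Fold changes were log2((KO + 1)/(WT + 1)). The filter was an average of 1 FPKM or more over the libraries, which 10542 genes passed, and a call means beyond 2-fold. No test was possible with 1 library per line. The genes and lists were chosen with earlier results of these data known. All 10 genes are named, and in other lists up to 4 genes beyond 2-fold. Others, such as Agrn, Lama5, Utrn, Ache, Myog, Gabpa, Chrnb2 and the genes beside the 10, were added for their role, position or level after values were seen. Positions and transcript lengths are from GENCODE vM39. Promoter windows are from RefSeq, and protein sequences were not used here. The calling step was run on values with planted changes and no noise, which checks the arithmetic only and not the rate of false calls. Python 3.11.15, pandas 2.3.3 and numpy 2.4.6 were used.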

Additional observations from a re-analysis of the deposited data

How the results depend on the processing

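With 1 library per line no replicate could be left out. No paired analysis was possible because each line has a single library and nothing was tested. A count was taken as moved past 1.5 times, and a median past 0.438, the interquartile range of log2 fold changes. The count of 2 receptor and junction genes more than 2-fold lower in KO became 4 with a pseudocount of 0.1 (Chrna1, Chrnd, Lrp4 and Rapsn) and 5 as a plain ratio. It was 3 without a filter, where Dok7 joined, and 3 with scaling to the same total, where Chrnd joined. With the neighbour median subtracted it stayed at 2, but as Chrna1 and Chrnd in place of Chrna1 and Rapsn. Chrna1 was in the count under all 8 alternatives. The count of higher genes was 0 in each. Over all genes, 362 were lower and 299 higher. A pseudocount of 5 gave 176 and 102, and a filter at an average of 5 FPKM gave 221 and 145. The median over the receptor and junction genes past the filter stayed between -0.64 and -1.13. Without a filter the medians of myoblast, myotube, fibroblast and neuron markers moved, to -0.72, -0.056, 0.17 and -0.031. Those of myoblast and neuron markers also moved with a pseudocount of 0.1 or 5. Of 50 single-gene values under the scaling, pseudocount and neighbour alternatives, 48 stayed below 0, and the exceptions were Chrne and Colq, at 0.0089 and 0.094 with the neighbour median subtracted. With a pseudocount of 5, Dok7 was at -0.44 and Chrnd at -0.41. The protein comparison planned for the subunits was not run.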

Other observations

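Genes of protein glycosylation were measured in both libraries, all but Dpm3 known from congenital myasthenic syndromes in people, a group of disorders of the neuromuscular junction. All 6 on the list were past the filter, with 0 more than 2-fold changed and a median log2 fold change of 0.24. Each of the 6 was above its WT value in KO, as were 50.7% of all genes past the filter. Gfpt1, the rate-limiting enzyme of the hexosamine pathway that supplies the substrate of Gne, was 15.4 FPKM in WT and 25.7 FPKM in KO. Alg2, a mannosyltransferase, was 10.6 and 16.0 FPKM, and Dpagt1, which starts the N-glycan precursor, was 37.0 and 38.9 FPKM. The genes named here were chosen after their values were seen.

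Genes of the nerve terminal were mostly low. Of 10, 7 were below 1 FPKM in both libraries, and Chat, Slc18a3 and Slc5a7, which define cholinergic neurons, were at 0 in both. The 3 past the filter, Vamp1, Stx1a and Rab3a, had lower values in KO, with log2 fold changes of -0.37, -0.55 and -0.11. Of all 10542 genes past the filter, 5192 were lower in KO. Over the whole list of 10, 4 were lower and 3 higher in KO, and the median was 0.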
